A study of Mus musculus with 7 samples.

Results

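The genes described here are 10 members of the interleukin-6 (IL-6) to STAT3 signalling pathway, taken by gene symbol from a table of 54532 genes: the inhibitors Socs3, Socs1 and Cish, the receptors Il6ra, Il6st, Osmr and Lifr, the kinases Jak1 and Jak2, and the transcription factor Stat3. The genes were chosen by pathway around Socs3, and Socs3 was selected on its FPKM in MDL-800 against control livers of these same libraries, so differences between those groups are a description and have no test. RNA was sequenced from liver of old C57BL/6 mice in 7 libraries. In 3 of them the animals received a standard diet following supplementation with MDL-800, a small-molecule activator of the NAD-dependent deacetylase SIRT6, and in 4 control libraries the animals received the standard diet. The labels give no dose, sex or age in months, and they do not say that each library came from a separate animal, so the tests measure the spread between these libraries, which may be technical. Values are the FPKM of the authors' deposited table, which scales reads to gene length and to library depth.

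IL-6 is released by macrophages and other cells in inflammation and after liver injury. It binds its receptor, encoded by Il6ra, and the complex joins gp130, the signalling chain encoded by Il6st, whose bound kinases JAK1, JAK2 and TYK2 phosphorylate STAT3. STAT3 enters the nucleus and raises transcription of acute phase proteins in hepatocytes, and of Socs3, whose product binds gp130 and the kinases and shuts the signal off. SOCS1 and CISH belong to the same inhibitor family. CISH and SOCS2 are known as feedback inhibitors of growth hormone signalling through STAT5. Oncostatin M and leukaemia inhibitory factor use gp130 together with the chains encoded by Osmr and Lifr.

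The stretch before the RefSeq start of Socs3 and a short site at a RefSeq start of Cish are shown. Both hold the core of a STAT binding motif, TTCNNNGAA, which reads the same on both strands. RefSeq promoter windows on GRCm38.p6, running from 250 bases before to 50 bases after each annotated start, were found for all 10 genes, and 2 of the 10, Socs3 and Cish, held the motif. Counted by window, 2 of 11 windows of these genes held it. Of 32851 windows of 300 bases over all genes, 2726 (8.298%) held it. In the sequences, written 5′ to 3′ on the strand of the gene, capitals mark the motif. The Socs3 stretch is the 250 bases before the RefSeq start (chr11:117969367-117969616, minus strand) and lies within the span of the deposited gene, which is listed from 117966079 to 117970047 on chromosome 11. Its motif begins at position -154 from that start. The Cish stretch (chr9:107296655-107296682, plus strand) holds the motif at the RefSeq start itself, position 0, and again at position 11. It too lies within the span of the deposited gene, listed from 107296026 to 107302784 on chromosome 9. 2 further sites are given for comparison: one before Bcl6 (chr16:23981433-23981461, minus strand), a transcriptional repressor, and one before Irf1 (chr11:53769914-53769942, plus strand), an interferon regulatory factor. A match describes letters only, and binding of a STAT protein was not measured.
Socs3: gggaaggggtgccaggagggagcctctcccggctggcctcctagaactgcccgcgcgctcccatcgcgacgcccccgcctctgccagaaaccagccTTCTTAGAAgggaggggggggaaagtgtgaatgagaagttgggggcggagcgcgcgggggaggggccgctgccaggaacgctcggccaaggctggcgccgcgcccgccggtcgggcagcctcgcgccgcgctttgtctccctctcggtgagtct
Cish: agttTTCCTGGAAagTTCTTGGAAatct
Bcl6: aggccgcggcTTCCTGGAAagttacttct
Irf1: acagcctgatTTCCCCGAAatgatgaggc

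Whole reads recovered from the deposited values numbered 17600066 to 19920469 per library. The hepatocyte marker Alb, serum albumin, stood between 35737 and 62511 FPKM in all 7 libraries. Control 1 and MDL-800 2 held 2173 and 3514 reads summed over 4 genes of the Y chromosome (Uty, Eif2s3y, Kdm5d and Ddx3y). The other 5 libraries held 0. Control 3 also had 0 reads of Xist, the noncoding RNA of X inactivation, where the remaining libraries without Y-linked reads had 15495 to 21104. Control 1 and MDL-800 2 had 3 Xist reads each. In the comparisons below, control 3 is grouped with the libraries without Y-linked reads, although its Xist level is unlike theirs. The first principal component of the tested genes (49.6% of the variance) set control 1 and MDL-800 2 apart, so estimates for MDL-800 minus control are also given for the 5 libraries without Y-linked reads. Testing was limited to the 11394 genes averaging 1 FPKM or more, 8 of the 10 pathway genes among them. Socs1 and Osmr fell below that level.

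Among the genes, ranked by mean FPKM over the 7 libraries, Lifr came first at 55.7 FPKM, followed by Stat3 (19.6), Jak1 (15.0), Il6st (12.1), Il6ra (6.33), Socs3 (5.80), Jak2 (5.01), Cish (1.74), Osmr (0.427) and Socs1 (0.396). The mean of Lifr was raised by control 3, at 268.8 FPKM. The median of Lifr was 15.5 FPKM, below the 19.6 FPKM of Stat3, and Lifr exceeded Stat3 in 4 of 7 libraries. Socs3 exceeded Jak2 in 4 of 7 libraries, namely the 4 controls, and Il6ra exceeded Socs3 in 5 of 7. Jak2 exceeded Cish, and Cish exceeded Osmr, in 7 of 7. The gaps between Stat3, Jak1, Il6st and Il6ra were kept in 6 of 7 libraries each, and Osmr exceeded Socs1 in 5 of 7.

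**Figure D1:**
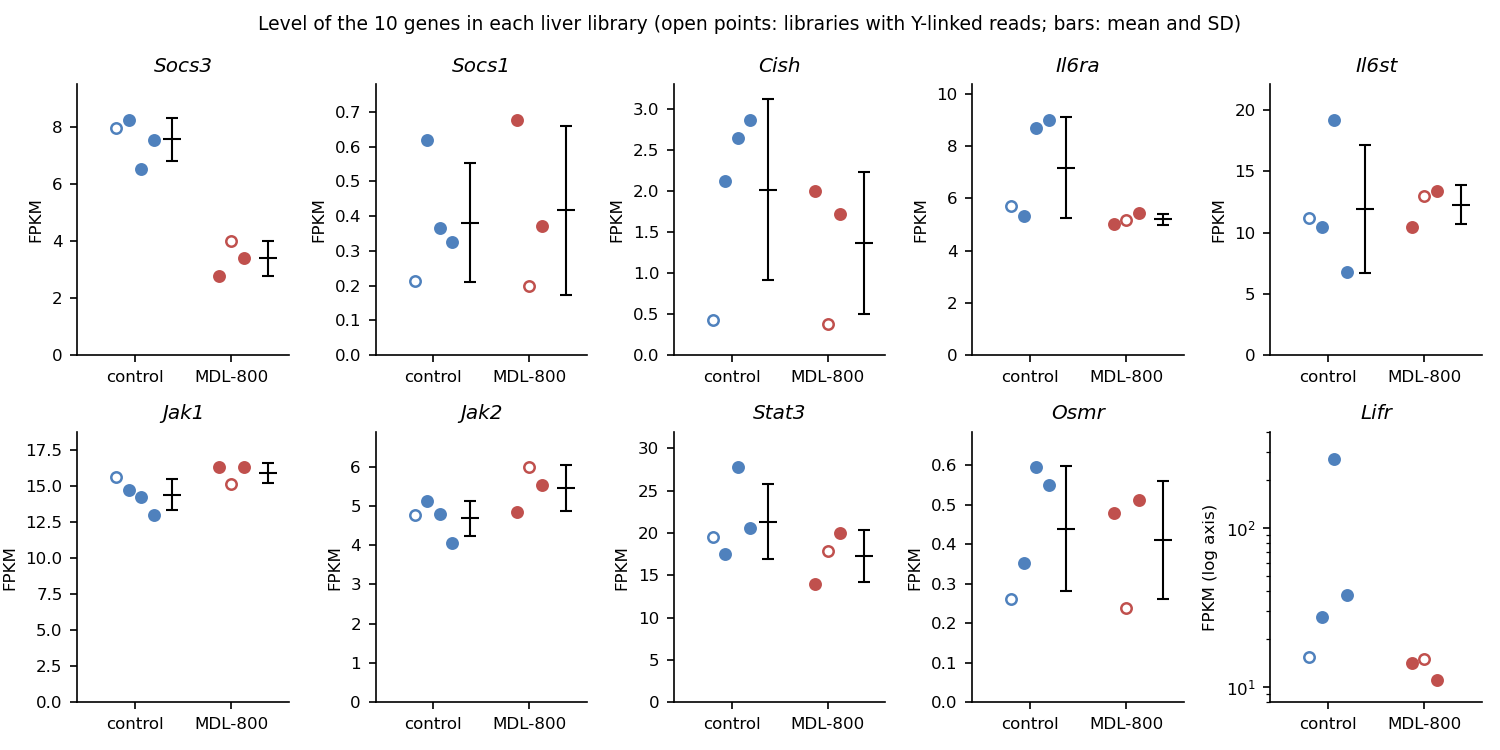
Level of each of the 10 genes in FPKM (vertical axes, logarithmic for Lifr) in the 4 control and 3 MDL-800 libraries, 1 point per library, with open points for control 1 and MDL-800 2, which hold Y-linked reads, and the mean and SD beside each group except for Lifr. In Socs3 and Lifr the groups do not overlap, and Cish, Socs1 and Osmr have both open points below the others.

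Socs3 (ENSMUSG00000053113, chromosome 11, 117966079 to 117970047, minus strand, GRCm38) was lower in each MDL-800 library than in each control. Its level was 2.78, 4.01 and 3.43 FPKM in MDL-800 1 to 3 and 7.99, 8.27, 6.55 and 7.55 FPKM in control 1 to 4. The highest treated library thus lay below the lowest control. The means were 3.41 ± 0.612 FPKM (SD, n = 3) and 7.59 ± 0.755 FPKM (SD, n = 4), from 139 to 465 reads per library. On the log2(FPKM + 1) scale, which understates differences of low genes, the estimate was -0.97 with a standard error of 0.13. It was -1.04 among the 5 libraries without Y-linked reads, and between -1.06 and -0.86 when any 1 library was left out. Every MDL-800 library lay below every control in 2 of the 10 genes, Socs3 and Lifr, and in 2.42% of the tested genes. The 10 genes were chosen with this contrast in view, so nothing is read from that share. In limma's moderated test with Benjamini-Hochberg adjustment, 0 of 11394 genes (0%), and so not Socs3, passed an adjusted p of 0.05. At an unadjusted p under 0.05 there were 553 genes. Limma voom on recovered reads also called 0, with 755 unadjusted.

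Among the receptors, Il6ra and Osmr had overlapping groups, Il6st had its extremes within the controls, and Lifr was separated by a narrow gap. Il6ra (chromosome 3, 89864059 to 89913196) encodes the IL-6 binding chain and stood at 5.004, 5.16 and 5.43 FPKM in the MDL-800 libraries and 5.70, 5.33, 8.68 and 9.01 FPKM in the controls. Control 3 and control 4 were high, and control 2 lay within the treated range. Its log2 estimate for MDL-800 minus control was -0.37 with a standard error of 0.19, and -0.45 among the 5 libraries without Y-linked reads. It overlaps the antisense gene Gm42809 by 281 bases. Il6st (chromosome 13, 112464070 to 112510086), the gp130 gene, stood at 10.5, 12.97 and 13.4 FPKM with MDL-800 and 11.2, 10.5, 19.2 and 6.78 FPKM in controls. The controls included both the highest and the lowest of the 7 values, and the estimate of 0.12 (standard error 0.30) ranged from -0.10 without control 4 to 0.36 without control 3. It was 0.08 among the 5 libraries without Y-linked reads.

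Lifr (chromosome 15, 7090614 to 7197489) encodes the leukaemia inhibitory factor receptor, and a gene-level value does not separate its membrane-bound and soluble forms. It stood at 14.1, 14.9 and 11.03 FPKM with MDL-800 and at 15.5, 27.6, 268.8 and 37.7 FPKM in controls. Control 3 lay far above the rest, with 41010 reads where the lowest library had 2087. The estimate was -1.73 with a standard error of 0.88 and was -0.89 without control 3. The 4 controls lay above the 3 MDL-800 libraries, by a gap between 15.5 FPKM in control 1 and 14.9 FPKM in MDL-800 2, both of which hold Y-linked reads. Among the 5 libraries without Y-linked reads the estimate was -2.31. In the same control 3, Il6st, Stat3 and Osmr were also at their highest: that library was highest for 4 of the 10 genes, and for 15.8% of the tested genes. Control 2 was highest for 5 of 13 further cytokine receptor genes tested, and for 15.0% of all tested genes. Control 3 was highest for 3 of these 13. The receptor genes for growth hormone, Ghr, and prolactin, Prlr, were among the 3, at 167.8 and 85.9 FPKM, where the other 6 libraries reached at most 112.1 and 28.8 FPKM. Whether these values have a shared source was not tested. Osmr (chromosome 15, 6813577 to 6874969), the oncostatin M receptor chain, was scarce at 0.478, 0.239 and 0.513 FPKM with MDL-800 and 0.262, 0.352, 0.595 and 0.549 FPKM in controls, from 45 to 109 reads, and its groups overlapped.

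The kinase genes and Stat3 had overlapping groups. Jak1 (chromosome 4, 101152367 to 101265282), the main kinase bound to gp130, stood at 16.3, 15.1 and 16.3 FPKM with MDL-800 and 15.6, 14.7, 14.3 and 13.01 FPKM in controls. MDL-800 2 lay within the control range and the estimate was 0.14 (standard error 0.10), or 0.21 among the 5 libraries without Y-linked reads. Jak2 (chromosome 19, 29251828 to 29313080) stood at 4.84, 5.99 and 5.53 FPKM with MDL-800 and 4.76, 5.12, 4.79 and 4.06 FPKM in controls. The groups overlapped through MDL-800 1 and control 2, and the estimate was 0.18 (standard error 0.11), or 0.13 among those 5 libraries. Stat3 (chromosome 11, 100885098 to 100939540) stood at 14.04, 17.8 and 20.1 FPKM with MDL-800 and 19.6, 17.5, 27.8 and 20.6 FPKM in controls. Control 3 was high and MDL-800 1 low. The estimate of -0.28 (standard error 0.19) came to -0.15 when either of these libraries alone was left out. It was -0.34 among the 5 libraries without Y-linked reads. The library preparation did not mark strand, and Stat3 shares 72 bases with Stat5a on the opposite strand. Jak1 shares 172 bases with the pseudogene Gm12785 on its own strand, 104 with the small nuclear RNA gene Gm24468 and 4 with Raver2, so reads in those stretches cannot be assigned.

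The other inhibitors of the SOCS family had overlapping groups. Socs1 (chromosome 16, 10782240 to 10785536), an inhibitor of interferon and cytokine signalling, stood at 0.677, 0.199 and 0.372 FPKM with MDL-800 and 0.213, 0.619, 0.364 and 0.327 FPKM in controls, from 9 to 35 reads. Its highest value and its lowest both came from treated livers. Cish (chromosome 9, 107296026 to 107302784) stood at 2.002, 0.381 and 1.72 FPKM with MDL-800 and 0.430, 2.12, 2.65 and 2.87 FPKM in controls, from 38 to 272 reads. The low library of each group was the one with Y-linked reads. The estimate for MDL-800 minus control was -0.33 (standard error 0.42). It ranged from -0.66 without control 1 to 0.02 without MDL-800 2, and was -0.31 among the 5 libraries with neither. Cish overlaps the antisense gene Gm17041 by 1459 bases and Gm17040 by 1167 bases, so its reads may include theirs.

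Because Socs3 protein acts on the receptor complex it is induced by, its transcript was also set against the tested receptor, kinase and Stat3 genes within every library, on FPKM, which is per length. The ratio of Socs3 to Jak1 was 0.171, 0.265 and 0.210 in MDL-800 1 to 3 and 0.512, 0.562, 0.459 and 0.581 in control 1 to 4. The ratio to Jak2 was 0.574 to 0.669 with MDL-800 and 1.37 to 1.86 in controls. For these 2 ratios the lowest control stood well above the highest treated library. The ratio to Stat3 was 0.171 to 0.225 with MDL-800 and 0.236 to 0.472 in controls, and the nearest control was control 3, where Stat3 was highest. The ratio to Il6st was 0.256 to 0.309 with MDL-800 and 0.341 to 1.11 in controls. The ratio to Il6ra overlapped, at 0.556 to 0.776 with MDL-800 and 0.754 to 1.55 in controls, with control 3 and control 4, which had the most Il6ra, at the low end of the controls. The ratio to Lifr overlapped as well, at 0.198 to 0.311 with MDL-800 and 0.0244 to 0.517 in controls, with means of 0.259 and 0.260. These ratios carry the difference for which Socs3 was chosen and add no test.

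**Figure D2:**
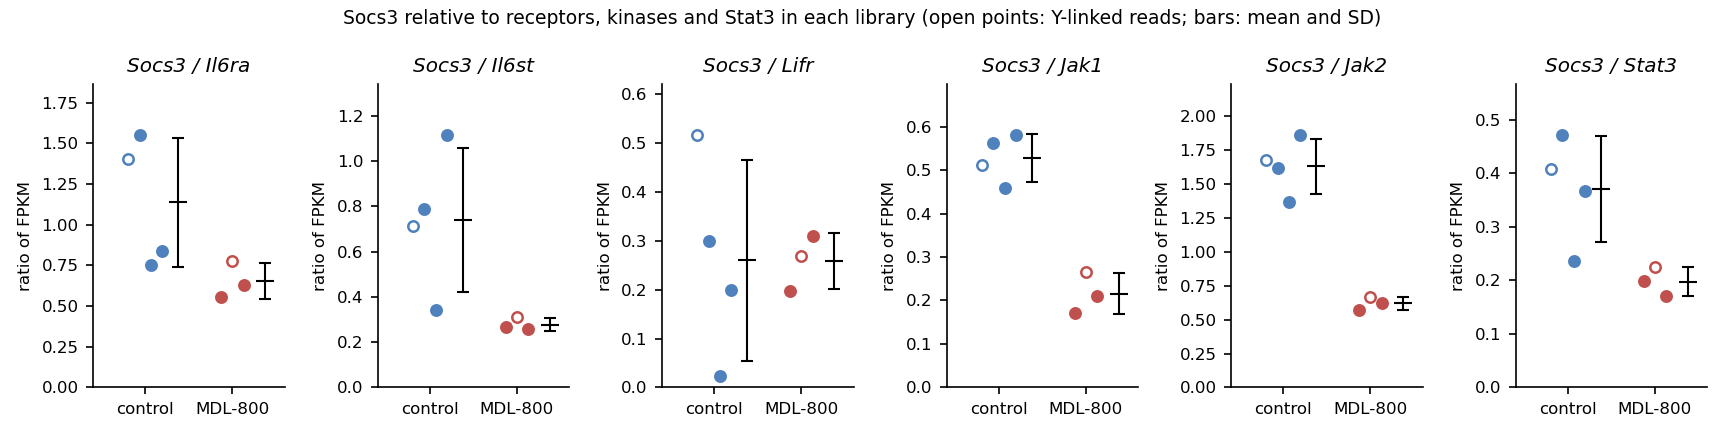
Ratio of Socs3 FPKM to the FPKM of Il6ra, Il6st, Lifr, Jak1, Jak2 and Stat3 (vertical axes) in each control and MDL-800 library, 1 point per library, open where Y-linked reads are present, with the mean and SD beside each group. Ratios to Jak1 and Jak2 lie far apart (0.171 to 0.265 against 0.459 to 0.581 for Jak1), and ratios to Il6ra and Lifr overlap.

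Within the groups, none of the 7 other tested pathway genes was shown to track Socs3. A pooled correlation is not given, because Socs3 falls into separate ranges in the 2 groups. The slope of each gene on Socs3, both as log2(FPKM + 1), was fitted with a term for the group. In limma, 0 of 11393 genes (0%) passed, with 321 at an unadjusted p under 0.05 and a lowest adjusted p of 0.0606, and voom called 0 with 423 unadjusted. Jak2 had a slope of 0.46 with a 95% interval of -0.47 to 1.39, and 0.26 to 0.77 with 1 library left out. Jak1 had -0.05 (-1.04 to 0.94) and Stat3 -0.26 (-2.04 to 1.52). Il6ra had -0.74 (-2.36 to 0.89), Il6st -0.61 (-3.38 to 2.16) and Cish -2.55 (-5.63 to 0.53). Lifr had -4.78 (-11.6 to 2.003), which was -9.15 when MDL-800 1 was left out and -0.28 when control 3 was. The Il6ra slope was -1.69 and -0.35 when the same libraries were left out, and was -0.06 with array weights. All 7 adjusted p-values were 0.9999, and the intervals are wide enough to hold slopes of 1 in either direction for Il6st and Stat3.

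The genes whose profile over the 7 libraries lay nearest to that of Socs3 were led by Ier2 and Nab2. Likeness was the root mean square difference between log2(FPKM + 1) values centred on each gene's own mean, ranked over 11393 tested genes. The nearest was Ier2 (0.220), an immediate early gene, at 10.8, 16.3 and 16.3 FPKM with MDL-800 and 22.2, 28.6, 17.4 and 23.4 FPKM in controls. Next came Nab2 (0.223), a co-repressor of EGR transcription factors, at 4.21, 5.51 and 5.39 FPKM against 9.07, 9.14, 5.76 and 8.12 FPKM. Control 3 was the lowest control for both genes and for Socs3, and for Ier2 and Nab2 it lay just above the highest treated library. The pseudogene Gm1821 (0.261), the phospholipid flippase gene Atp11a (0.263), Phlda1 (0.271), the pseudogene Gm15610 (0.273), Sertad1 (0.281) and the lincRNA Gm30301 (0.285) followed. Reads of the 2 pseudogenes may come from their parent genes. Since the measure favours genes that are lower with MDL-800, it restates in part the contrast used to choose Socs3.

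**Figure D3:**
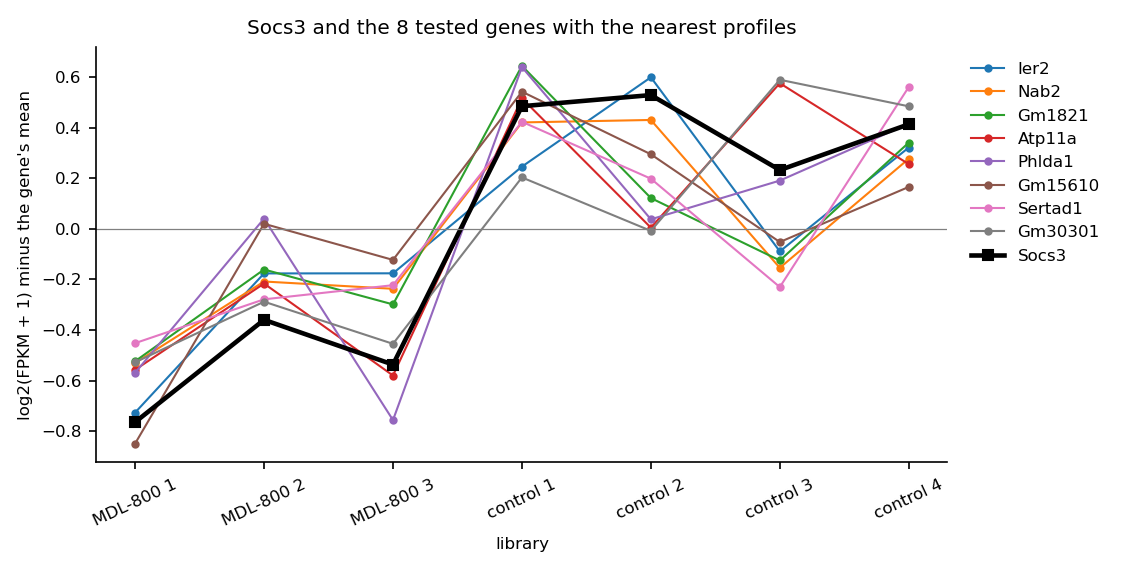
Centred log2(FPKM + 1) of Socs3 (thick black line, squares) and of the 8 tested genes with the nearest profiles (vertical axis) in each of the 7 libraries (horizontal axis). The lines join libraries only to aid the eye, and most lie below 0 in the MDL-800 libraries and above 0 in the controls, with Ier2, Nab2, Sertad1 and others dipping below 0 in control 3.

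Of the pathway genes, Il6ra and Stat3 lay nearest to Socs3 by that measure, at ranks 725 and 858 of 11393. Jak1 ranked 6055, Jak2 6487, Il6st 9306, Cish 9610 and Lifr 11199. Of the 13 immediate early genes listed as markers of tissue handling, 12 were tested, and 10 had negative and 2 positive estimates for MDL-800 minus control, with a median of -0.28 beside 0.02 over all tested genes. Their summed level ran from 61.7 to 104.2 FPKM in the MDL-800 libraries and 85.9 to 166.9 FPKM in controls, and Fosb had at most 15 reads in any library. Their part in the level of Socs3 was not tested.

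Cish was lower in the libraries with Y-linked reads, a difference that had no part in choosing the genes. It stood at 0.381 FPKM in MDL-800 2 and 0.430 FPKM in control 1, against 1.72 to 2.87 FPKM in the other 5 libraries, a mean of 0.405 FPKM (n = 2) beside 2.27 ± 0.476 FPKM (SD, n = 5). The limma estimate with a term for treatment was -1.19 (standard error 0.14, adjusted p = 0.0164), and both libraries lay below all 5 others. In this comparison 2.42% of the tested genes passed the threshold, 1.1% as lower and 1.33% as higher, and 1 of the 8 tested pathway genes was called. The call was lost without MDL-800 1 (adjusted p = 0.0718), MDL-800 2 (0.0834), MDL-800 3 (0.0506) or control 1 (0.232) in limma, with estimates between -1.31 and -1.05. On the scale of recovered reads, voom gave -2.60 (adjusted p = 0.00633). With 2 such libraries, 1 in each group, anything else that sets these libraries apart cannot be told apart from the Y-linked reads.

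**Figure D4:**
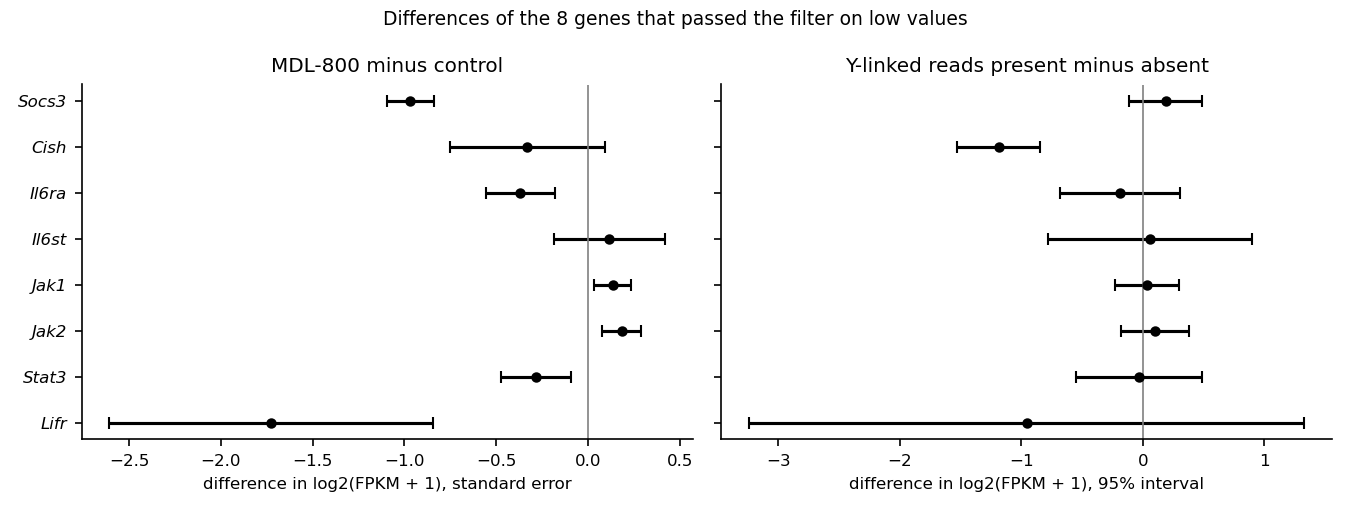
Estimated difference in log2(FPKM + 1) (horizontal axes) for the 8 tested pathway genes, for MDL-800 minus control on the left with its standard error and for libraries with minus without Y-linked reads on the right with its 95% interval. The left bars are standard errors and carry no test, and on the right the interval of Cish lies below 0 at -1.19 while that of Socs3 spans 0.

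For the other 7 tested genes the comparison by Y-linked reads found no difference past the threshold. Socs3 had an estimate of 0.19 (95% interval -0.12 to 0.49, adjusted p = 0.410 in limma), from 0.09 to 0.29 with 1 library left out and 0.02 with voom. The estimates were 0.10 for Jak2, 0.06 for Il6st, 0.03 for Jak1, -0.03 for Stat3, -0.19 for Il6ra and -0.96 for Lifr, with adjusted p-values up to 0.946. Leaving out MDL-800 2 gave Il6ra an estimate of -0.34, and leaving out control 1 gave -0.01. Il6ra could still differ by -0.68 to 0.30 and Lifr by -3.24 to 1.33 within their intervals. Below the tested level, Socs1 stood at 0.199 and 0.213 FPKM in these 2 libraries, where the other 5 held 0.327 to 0.677 FPKM. Osmr stood at 0.239 and 0.262 FPKM against 0.352 to 0.595 FPKM. Among tested genes, 12.8% had both of these libraries below all 5 others.

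Summed markers of Kupffer cells, monocytes and neutrophils, T and NK cells and cholangiocytes did not overlap along the same split, while those of hepatocytes and endothelial, stellate and B cells did. Of 10 Kupffer cell (resident macrophage) markers, 9 had negative estimates for presence of Y-linked reads, Marco being the exception, and their summed level was 231.2 to 258.0 FPKM in these 2 libraries and 481.1 to 2230 FPKM in the other 5. All 7 tested monocyte and neutrophil markers had negative estimates, with sums of 75.0 and 105.5 FPKM against 227.2 to 778.0 FPKM, and Lyz2, lysozyme, was called lower (-2.06, adjusted p = 0.0493 in limma), a call lost without any 1 library other than control 2 or control 3. Ly6g, a neutrophil marker, had 0 reads in MDL-800 2 and 1 in control 1. In whole liver RNA, fewer cells of a type and less RNA per cell cannot be told apart. The part of these cells in the levels of Cish, Socs1 and Osmr was not tested. Between MDL-800 and control the same sums overlapped, at 231.2 to 843.6 and 258.0 to 2230 FPKM for Kupffer cell markers.

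Among 7 growth hormone STAT5 targets, Cish included, the genes called by Y-linked reads were Cish, Socs2 and Serpina3k. Of all tested genes, 2.42% were called. Socs2, the other feedback inhibitor of growth hormone signalling, stood at 0.365 FPKM in MDL-800 2 and 0.376 FPKM in control 1 and at 2.17 to 7.33 FPKM elsewhere (-1.86, standard error 0.26, adjusted p = 0.0264 in limma). Serpina3k, a plasma protease inhibitor of hepatocytes, went the other way, at 4294 and 6484 FPKM against 869.3 to 2682 FPKM (1.70, adjusted p = 0.0417). Bcl6 stood at 5.82 and 17.6 FPKM against 1.92 to 3.50 FPKM and did not pass (1.73, adjusted p = 0.0719). Igf1, insulin-like growth factor 1, lay within the range of the other libraries at 63.9 FPKM in both (-0.11). The estimates were -0.71 for Igfals, which encodes the carrier subunit of circulating IGF complexes, and -1.10 for the transcription factor gene Onecut1. Socs2 lost its call without MDL-800 1 (0.0855), MDL-800 3 (0.0586) or control 1 (0.231), as adjusted p in limma, and Serpina3k without any 1 library other than control 3. Of the 5 genes of this list with RefSeq promoter windows, 3 held TTCNNNGAA (Cish, Bcl6 and Igfals), as set out above for Cish and Bcl6. Some of these genes have several windows. Counted by window, 5 of 8 held the motif, beside 8.298% of windows over all genes, and enrichment was not tested.

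**Figure D5:**
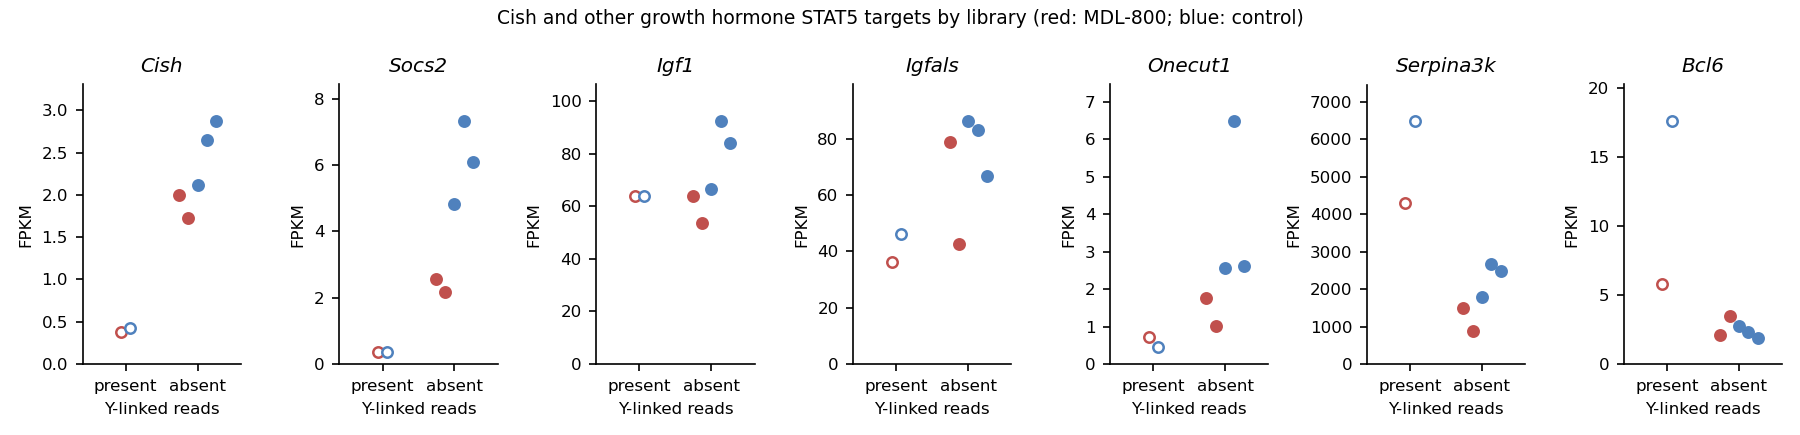
FPKM (vertical axes) of Cish and 6 other growth hormone STAT5 targets in the libraries with Y-linked reads present (open points, 1 control in blue and 1 MDL-800 in red) and absent (filled points, 3 controls in blue and 2 MDL-800 in red). Cish, Socs2 and Onecut1 lie below, and Serpina3k and Bcl6 above, the filled points in both open libraries, while Igf1 lies among them. Of all tested genes, 12.8% lie below in this way, and the share lying above was not counted.

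Several ligands gave few reads. As for all tested genes, no further component of the pathway was called between MDL-800 and control. Over the 7 libraries Il6 had 0 to 4 reads, Il11 0 to 1, Osm 0 to 6 and Lif 0 to 11, so differences in these ligands were not detectable at this depth. Of 9 cytokines of the gp130 family, Ctf1 (cardiotrophin 1; 2.96 to 4.80 FPKM) and Ebi3 (0.390 to 5.17 FPKM) reached the tested level, with MDL-800 estimates of 0.18 and -0.59. Of 13 tested further cytokine receptors, 0 passed in limma, with 9 negative and 4 positive estimates and a median of -0.05. The median over all tested genes was 0.02, with 54.2% above 0. Ifnar2, the interferon alpha receptor chain, stood at 16.4 to 20.4 FPKM, and Ifngr1, for interferon gamma, ranged from 6.37 to 21.8 FPKM.

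Of 7 tested kinases and STATs beside Jak1, Jak2 and Stat3, 6 had negative estimates for MDL-800 (median -0.16, 0 called). Stat5b, the main hepatic STAT of growth hormone signalling, stood at 14.6 to 20.9 FPKM (estimate -0.00, standard error 0.16), and Stat6, which serves interleukin-4, at 14.1 to 18.8 FPKM (-0.05). Stat2, which serves interferons, had an estimate of -0.33. Of 14 further inhibitors, 10 were negative and 4 positive (median -0.02, 0 called), among them the phosphatase genes Ptpn6 (-0.58), Ptpn1 (-0.59) and Ptpn11 (0.16) and the STAT inhibitor gene Pias2 (-0.00). Of 10 receptor shedding and adaptor genes, 5 were negative (median -0.01, 0 called). Elob and Eloc, whose products join SOCS proteins to a ubiquitin ligase, had estimates of -0.16 and 0.00, with Rnf7 at -0.02 and the adaptor gene Grb2 at -0.18.

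The target genes downstream of STAT3 had mostly negative estimates for MDL-800, and none was called. Over all tested genes, 54.2% of estimates were above 0. The lean was not particular to these targets. It was also seen in 7 of 7 growth hormone STAT5 targets (median -0.46) and 9 of 10 Kupffer cell markers (median -0.41). Endothelial and stellate cell markers leaned the other way, with 5 of 7 and 6 of 7 positive. Of 13 tested target transcription factors and regulators, 11 had negative estimates (median -0.32, 0 called). Bcl3, an NF-kB regulator, stood at 16.7, 9.39 and 11.7 FPKM with MDL-800 and 24.4, 17.9, 20.7 and 17.4 FPKM in controls. Its groups did not overlap, with a narrow gap between 16.7 and 17.4 FPKM. Of all tested genes, 2.42% were lower with MDL-800 without overlap. Cebpb, an acute phase transcription factor, overlapped at 32.0 to 83.1 FPKM with MDL-800 and 57.3 to 105.3 FPKM in controls. Junb (-0.53) and Pim3 (-0.32) overlapped as well. Of 21 plasma protein and iron genes, 20 had negative estimates (median -0.61, 0 called), among them the haem and haemoglobin carriers Hpx (-0.65) and Hp (-0.67) and the fibrinogen chain Fgg (-0.42). Hamp, which encodes the iron hormone hepcidin, was the exception at 0.26. The direction of this list was known from earlier results on these libraries and is no independent evidence. In the window of 300 bases, 6 of the 17 genes of this list with a window held TTCNNNGAA, as did 3 of 12 target regulators. Counted by window, these were 6 of 18 and 4 of 17, beside 8.298% of windows over all genes. Enrichment of the motif was not tested.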

How the data were processed

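RNA-seq of 7 mouse liver libraries was used, 3 MDL-800 and 4 control, grouped by their labels. The deposited values are FPKM, in a single gene table that also lists identifiers, positions and lengths. Per the labels' protocols, cDNA came from a low-input SMARTer kit, was amplified and sheared, and entered an NEBNext library kit, which does not mark strand. TopHat2 2.0.14, Bowtie2 2.1.0, Cufflinks 2.2.1 and build mm9 are named per the submitters' processing notes, with no counting tool named in the sources used. Gene positions match GRCm38: 53756 of 54409 identifiers also found in GENCODE M21 start at the same base.

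FPKM times gene length gave whole reads in each library (tolerance 0.01, met by 100% of the values above 0), used for depth and for limma voom. Without molecular identifiers, read counts are not independent molecules. Tests used limma (version 3.58.1, under R 4.3.3; lmFit, eBayes with trend, two-sided, Benjamini-Hochberg over all tested genes, threshold 0.05) on log2(FPKM + 1) for genes averaging 1 FPKM or more. The model was fitted for MDL-800 against control, for presence of Y-linked reads with a group term, and for the slope on Socs3 with a group term, and was tested on simulated data. The pathway genes and lists were chosen with earlier results of these data known. Named genes were the 10 members, the 4 tested genes of highest mean in each pathway list and any past the threshold, the 2 highest in each marker list, and the 8 nearest profiles. Others were named after their values were seen, among them Onecut1, Ly6g, Marco and Fosb. Alternatives were pseudocount, filter, scaling, voom, array weights, a Y-linked term, a replicate block and leaving out each library. Protein sequences and binding data were not used here, and a few named items are not reported here. Plots used matplotlib 3.10.9 in Python 3.11.15.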

Additional observations from a re-analysis of the deposited data

Results flagged for a closer look

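Lifr stood at 268.8 FPKM in control 3, where the other 3 controls had 15.5, 27.6 and 37.7 FPKM. The gap to the nearest control exceeded Dixon's 95% critical value for 4 samples. It was the only gene to do so among 18 control groups examined, where chance gives about 1 in 20. Control 3 is also the library with 0 reads of both Xist and the 4 Y-linked genes. Without it the Lifr estimate for MDL-800 minus control went from -1.73 to -0.89.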

How the results depend on the processing

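The Socs3 estimate for MDL-800 minus control was negative under every alternative run, from -1.14 with a pseudocount of 0.1 to -0.86 without one library. The count of genes called between MDL-800 and control was 0 in every setting except 1 without MDL-800 1 and 1 without control 1, so leaving out a library gave 0 to 1. By Y-linked reads, 276 genes were called, against 159 without the filter on low values, 1796 with array weights and 38 to 409 with a library left out (82, 84 and 93 without MDL-800 1, 2 or 3, 38 without control 1, 409 without control 3). Without control 1 or MDL-800 2 a single library stood for the Y-linked reads and was assumed to vary like the others. For the slope on Socs3, 0 genes were called, against 1 with a mean of at least 5 FPKM, 1 with median scaling and 4 with array weights, a fit that stopped short of its tolerance. Some of these settings used fewer libraries or a different set of genes, and the cause of the changed counts was not tested. Voom moved the median over all genes by Y-linked reads from 0.08 to -0.09. By Y-linked reads the sign turned for Il6st (-0.031 quantile, -0.12 voom, -0.016 without MDL-800 1, library left out -0.10 to 0.24), Jak1 (-0.082 quantile, -0.16 voom, library left out -0.10 to 0.15), Jak2 (-0.069 voom), Stat3 (library left out -0.14 to 0.082, positive without MDL-800 3, control 1 or control 3) and Lifr (library left out -2.02 to 0.24, positive without control 1). For slopes it turned for Il6st (0.48 array weights, library left out -2.18 to 1.08, positive without control 3), Stat3 (0.77 array weights, library left out -1.80 to 0.66, positive without control 2 or 3) and Jak1 (0.39 voom, library left out -0.13 to 0.18, positive without MDL-800 1 or 2). None of these values passed the threshold under either sign. Cish lost its call with quantile normalization too (adjusted p = 0.0514), and its slope on Socs3 went from -2.55 to -0.33 with a term for Y-linked reads.

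The labels share replicate numbers between groups. Same-numbered libraries did not deviate together (correlations -0.587, -0.553 and 0.0565), and the main fits did not pair them. The highest correlation was 0.771, between MDL-800 2 and control 1, which both hold Y-linked reads. These values cannot show whether the animals were paired. With the replicate number as a block, 0 genes were called, 192 had an unadjusted p under 0.05, and the Socs3 estimate was -0.97. Depth limits Il6, Il11, Osm and Lif, each with at most 11 reads.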
